A study of Mus musculus with 76 samples.

Results

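The report covers WD (Western diet) against ND (normal diet) in the right ventricle of female mice collected at 530 d of age, measured in 9 of the 76 RNA-seq libraries of the series. The libraries were chosen by sex, diet and collection age alone: ND replicates 1 to 4 are F6 to F9, and WD replicates 1 to 5 are F11 to F15. The series followed life-long effects of radiation and of diet on right ventricular tissue, and all 9 libraries here came from sham-treated C57Bl/6J females that received a dose of 0 cGy. WD, a diet rich in fat, sugar and cholesterol, was fed from 300 d of age for 125 d and was followed by 105 d of normal chow, so the tissue was taken long after the diet had ended. ND females ate normal chow throughout. Collection ages came from the study's own list of samples. The labels list each library as a separate sample without tying it to an animal, so p-values measure the spread between these samples.

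Poly-A selected RNA was sequenced, and reads were counted on each gene. Total counts were 15476026, 13161552, 12749294 and 13078585 in F6 to F9, and 16565354, 14478933, 20343009, 17518743 and 16342563 in F11 to F15. The mean total was 3433360 counts higher in WD (exact two-sided permutation test, p = 0.0317, adjusted p = 0.0635 over 2 tests, smallest possible p = 0.0159). With F6 and F7, which had nearly the same counts, as 1 library, p was 0.0536 (adjusted p = 0.107). RNA integrity (RIN) was 7.6, 7.2, 5.9 and 7.3 in ND and 6.4, 6.9, 7.5, 7.2 and 8.1 in WD. The difference in mean RIN was 0.22 (7 ± 0.753, SD, n = 4, against 7.22 ± 0.638, n = 5, exact permutation p = 0.667). Levels are given as CPM, meaning counts relative to the total of a library over the 10995 genes tested, after TMM scaling. A fold change is the log2 ratio of WD to ND.

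All 8 ventricular cardiomyocyte markers were expressed in every library, with Myl2, the ventricular myosin light chain, between 5754 CPM in F15 and 12136 CPM in F11. Atrial markers were also present in some libraries, as Myl7, the atrial regulatory light chain, had 4302, 3772, 1 and 2 counts in F6 to F9 and 37, 2236, 2, 595 and 17458 counts in F11 to F15. Xist, transcribed from the inactive X chromosome, had 1791 to 3332 counts per library, while each of 4 Y-linked genes had at most 2.

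F6 and F7 had nearly the same counts. The squared difference between their counts of a gene, divided by its variance from counting alone, averaged 2.18 over 10995 genes, where counting error alone gives about 1. The next closest of the 36 pairs, F6 and F12, had 9.73, the median pair had 23.6, and F8 and F15 had 76.3. Since F6 and F7 may not be independent samples, the Dbp result and some others are also given with their counts summed into 1 library, which left 3 ND libraries. Where no summed value is given, and in DESeq2, F6 and F7 were separate.

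The gene with the smallest p between the diet groups belongs to the circadian clock, whose wiring is described first. BMAL1 and CLOCK, or its relative NPAS2, bind E-boxes and switch on the PER, CRY and REV-ERB repressors as well as DBP, while the PER and CRY proteins feed back on BMAL1 and CLOCK. DBP, HLF and TEF, the PAR bZIP factors, activate genes through D-boxes, where NFIL3 represses, and REV-ERB and ROR receptors act in opposite ways on Bmal1. Cardiomyocytes run this clock on their own, and it sets a daily rhythm in the transcripts of heart metabolism. The hour of tissue collection is not given in the sources used here, so for Dbp, Bmal1, Ciart, Per3 and the other clock genes a difference between the diet groups and a difference in hour cannot be told apart.

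Dbp was the 1 gene that passed the test across 10995 genes (0.0091%). It lies on the plus strand of chromosome 7, from 45354512 to 45359627 in GRCm39, and is protein-coding. Its level was 136, 135, 111 and 146 CPM in F6 to F9 and 80.7, 75.1, 75.8, 67.9 and 83.9 CPM in F11 to F15. All 5 WD libraries were below all 4 ND libraries, with a gap between F15 and F8. Dbp fell from 132 ± 14.9 CPM (SD, n = 4) to 76.7 ± 6.11 CPM (n = 5), or to 0.581 of the ND level (log2 fold change −0.78, SE 0.0935, edgeR adjusted p = 0.0287). With F6 and F7 summed, the fold change was −0.77 and the call was lost (adjusted p = 0.230), and edgeR then called 0 genes, with 542 at an unadjusted p under 0.05.

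The Dbp call was also lost when F6, F7, F9, F11, F12, F13 or F14 was left out (adjusted p = 0.228, 0.225, 0.107, 0.0726, 0.188, 0.176 and 0.150), and when the spread was taken from all 39 sham libraries of both sexes (adjusted p = 1.00). It was kept without F8 or F15 (adjusted p = 0.00407 and 0.0483) and with the spread of the 19 sham female libraries (adjusted p = 0.00484), in which near-identical libraries were separate. Its fold change stayed between −0.73 and −0.86 over the libraries left out. In bulk tissue, fewer cells of a type and less RNA per cell cannot be told apart, for Dbp as for every gene below.

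Hlf, the second PAR bZIP factor, had 34, 36.4, 32.2 and 31.4 CPM in ND and 14.7, 23.3, 22.6, 20.6 and 30.3 CPM in WD. The groups did not overlap, but F15 was just under the lowest ND library, and Hlf did not pass the test (log2 fold change −0.59, SE 0.159, edgeR adjusted p = 0.798). Tef, the third, had 205, 200, 186 and 230 CPM in ND and 140, 151, 168, 153 and 198 CPM in WD, where F15 overlapped the ND range (log2 fold change −0.34, adjusted p = 0.798). Of the 3 PAR bZIP genes, all 3 had an unadjusted p under 0.05 in the lower direction, as had 282 of all genes tested (2.56%), and 2 of 3 had groups that did not overlap, as had 91 of all genes (0.828%). Their median log2 fold change was −0.59, beside −0.0024 over all genes, of which 50.7% were lower. Dbp, already singled out by its p, is among the 3, and the clock lists were chosen with earlier results of these data known. These counts, and those of the clock lists below, are therefore a description.

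**Figure D1:**
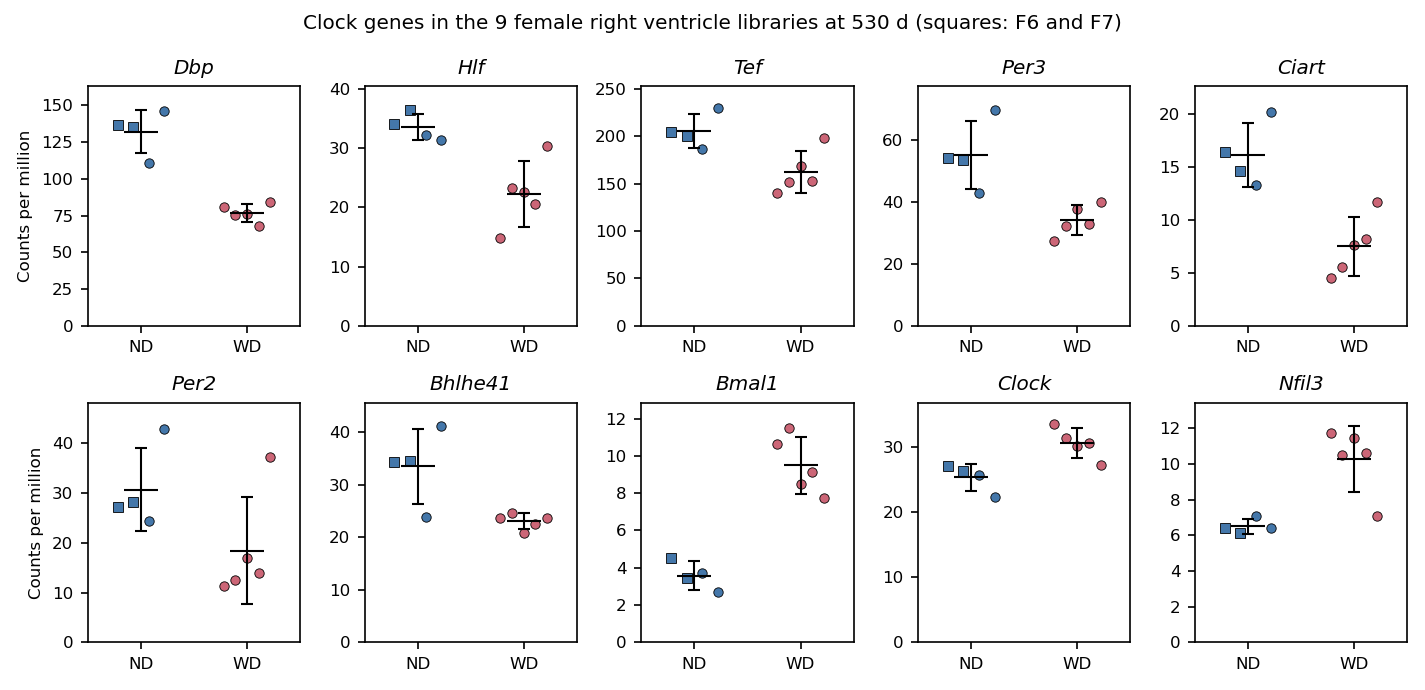
CPM on linear axes from 0 for 10 clock genes in each of the 4 ND (blue) and 5 WD (red) libraries, with 1 point per library, squares for F6 and F7, and lines for the mean ± 1 SD of each diet. Dbp lies between 111 and 146 CPM in ND and between 67.9 and 83.9 CPM in WD, Bmal1 is higher in all 5 WD libraries than in all 4 ND libraries, and F15 is the WD library closest to ND for Dbp, Hlf, Tef, Per3, Ciart, Per2, Bmal1, Clock and Nfil3.

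The clock repressors and other E-box targets formed the next list, of which 12 of 12 genes were tested. Ciart (Chrono), a repressor of BMAL1 and CLOCK, had 16.4, 14.6, 13.4 and 20.2 CPM in ND and 4.51, 5.56, 7.62, 8.22 and 11.7 CPM in WD. All WD libraries were below all ND libraries, with F15 nearest (log2 fold change −1.10, SE 0.232, edgeR adjusted p = 0.563). Per3, a period gene, had 54.1, 53.7, 43.1 and 69.7 CPM in ND and 27.6, 32.3, 37.6, 33 and 40.1 CPM in WD, again without overlap (log2 fold change −0.69, SE 0.139, adjusted p = 0.563). Neither passed the edgeR test, but with RIN as a covariate both did, and so they did in DESeq2 and when no filter on low counts was used, all with F6 and F7 as separate libraries. With F6 and F7 summed, Ciart and Per3 each had an adjusted p of 0.880, and with the spread of the 39 sham libraries 1.00.

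Per2, the period gene that also responds to glucocorticoids, had 27.3, 28.2, 24.3 and 42.8 CPM in ND and 11.3, 12.6, 16.9, 14 and 37.3 CPM in WD. WD libraries F11 to F14 were below the ND range and F15 was inside it, and the log2 fold change of −0.73 became −1.16 without F15. Bhlhe41 (DEC2), a repressor that competes at E-boxes, had 34.4, 34.5, 23.9 and 41.3 CPM in ND against 20.8 to 24.7 CPM in WD, where F8 alone of the ND libraries overlapped WD (log2 fold change −0.54, SE 0.131, edgeR adjusted p = 0.75).

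The other repressor genes differed less between the diets. Nr1d1 and Nr1d2, which encode REV-ERB alpha and beta, had log2 fold changes of −0.18 and −0.12, and Bhlhe40 (DEC1) had −0.21. Single libraries moved these, Nr1d1 to −0.35 without F8 and −0.082 without F9, Nr1d2 to −0.052 without F12 and −0.068 without F8, and Bhlhe40 to −0.070 without F9 and −0.33 without F15. Per1 spread from 28.3 CPM in F11 to 117 CPM in F15 within WD, against 51.3 to 68.7 CPM in ND. Cry2, Nampt, Usp2 and Wee1 had log2 fold changes between −0.07 and 0.07, and between −0.17 (Usp2 without F8) and 0.15 (Nampt without F8) with 1 library left out. In all, 4 of the 12 had an unadjusted p under 0.05, all lower, beside 2.56% of all genes, and 3 with F6 and F7 summed, where Per2 had an unadjusted p of 0.0541. Of the 12, 9 were lower and 3 higher, and 0 passed the edgeR test. The median log2 fold change was −0.15, and it was −0.083 without F9 and −0.24 without F8. DESeq2 called 2 of them, Ciart and Per3.

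The list of Bmal1, Clock and genes tied to them held activators and repressors, and none of its 5 genes tested passed the edgeR test. Nfil3, the D-box repressor, had 6.43, 6.10, 7.10 and 6.39 CPM in ND and 11.8, 10.5, 11.4, 10.6 and 7.09 CPM in WD, where F15 alone fell within the ND range (log2 fold change 0.66, SE 0.150, edgeR adjusted p = 0.75). Clock had 27, 26.3, 25.7 and 22.2 CPM in ND and 33.5, 31.3, 30.1, 30.6 and 27.2 CPM in WD, with no overlap but a narrow gap (log2 fold change 0.27, SE 0.0876, adjusted p = 0.798). Cry1, a repressor with a late phase, and Rora, a receptor that activates Bmal1, had log2 fold changes of 0.02 and 0.17. Cry1 was −0.022 with F6 and F7 summed, and Rora was 0.27 without F8, 0.10 without F7, 0.082 without F9 and 0.058 without F15. All 5 genes tested of the 7 listed had a log2 fold change above 0 with the 9 libraries separate, 2 had an unadjusted p under 0.05, as had 402 of all genes in that direction (3.66%), 1 had groups that did not overlap, as had 152 of all genes (1.38%), and the median was 0.17, and 0.27 without F8.

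Bmal1 and Npas2 were outside the test because the filter asked for more than 20 counts in each of the 39 sham libraries. Bmal1 was at or under that number in 8 of them, with a lowest count of 6. In the 9 libraries its counts were 68, 44, 45 and 36 in ND and 167, 169, 174, 158 and 130 in WD, and every WD library was far above every ND library. When the filter was applied to these 9 libraries only, which left 12024 genes, Bmal1 rose from 3.59 ± 0.757 CPM (SD, n = 4) to 9.49 ± 1.53 CPM (n = 5), a log2 fold change of 1.40 (SE 0.175, edgeR adjusted p = 0.0253), and Dbp and Bmal1 were the 2 genes called. With F6 and F7 also summed, the Bmal1 fold change was 1.43 and neither gene passed (adjusted p = 0.121 for both). Npas2 had 1.79, 3.13, 1.98 and 2.53 CPM in ND and 3.75, 3.39, 2.83, 3.94 and 3.57 CPM in WD, where F7 lay above F13 (log2 fold change 0.57, adjusted p = 0.807).

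**Figure D2:**
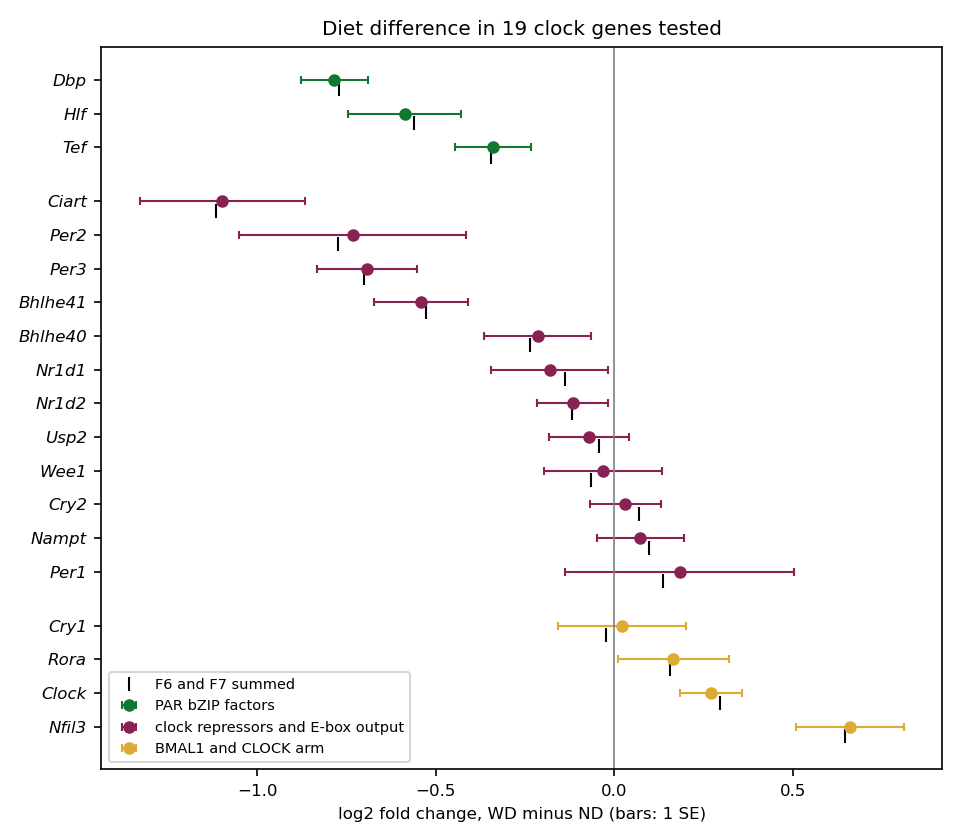
Log2 fold change of WD over ND (points, with bars of 1 SE) for 19 of the clock genes tested, coloured by list, with black ticks for the values with F6 and F7 summed. Ciart at −1.10 is the lowest and Nfil3 at 0.66 the highest, while Bmal1 and Npas2, which were outside the test, are not drawn.

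Promoter sequences of the clock genes were searched for the elements named above, on both strands, in windows from 250 bases before to 50 after a transcript start (RefSeq, GRCm38.p6). Of 22 clock genes listed, 18 had a promoter in the table, with 23 windows in all. The E-box CACGTG was in 6 of the 23 windows and in 7.15% of all 32851 promoters, the D-box TTATGTAA in 1 window and 0.938% of promoters, and the receptor element AGGTCA in 6 windows and 16.3% of promoters. The 4 windows printed belong to Dbp and Bmal1, the genes called with the filter over the 9 libraries, and to Ciart and Per3, the repressors with the smallest p, in lower case with matches in capitals: Dbp at chr7:45704997-45705296 on the plus strand, Ciart at chr3:95882179-95882478 on the minus strand, Per3 at chr4:151044616-151044915 on the minus strand, and Bmal1 (RefSeq symbol Arntl) at chr7:113207261-113207560 on the plus strand.
Dbp: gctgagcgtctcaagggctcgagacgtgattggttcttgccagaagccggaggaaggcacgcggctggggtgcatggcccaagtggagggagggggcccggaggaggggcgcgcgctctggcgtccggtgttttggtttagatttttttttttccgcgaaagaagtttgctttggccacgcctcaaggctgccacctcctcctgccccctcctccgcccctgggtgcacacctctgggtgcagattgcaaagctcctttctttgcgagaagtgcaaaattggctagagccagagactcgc
Ciart: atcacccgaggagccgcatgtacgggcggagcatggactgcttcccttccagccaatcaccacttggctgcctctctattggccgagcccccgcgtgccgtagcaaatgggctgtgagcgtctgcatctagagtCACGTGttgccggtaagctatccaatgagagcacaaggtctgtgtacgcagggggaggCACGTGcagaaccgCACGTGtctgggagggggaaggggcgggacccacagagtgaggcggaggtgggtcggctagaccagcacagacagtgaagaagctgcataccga
Per3: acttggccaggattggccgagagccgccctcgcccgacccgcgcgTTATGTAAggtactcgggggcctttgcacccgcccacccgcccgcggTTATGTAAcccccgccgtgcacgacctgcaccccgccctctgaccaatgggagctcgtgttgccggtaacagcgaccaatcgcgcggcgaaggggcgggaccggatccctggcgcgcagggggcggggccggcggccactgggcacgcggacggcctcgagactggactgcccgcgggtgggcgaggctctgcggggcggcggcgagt
Bmal1: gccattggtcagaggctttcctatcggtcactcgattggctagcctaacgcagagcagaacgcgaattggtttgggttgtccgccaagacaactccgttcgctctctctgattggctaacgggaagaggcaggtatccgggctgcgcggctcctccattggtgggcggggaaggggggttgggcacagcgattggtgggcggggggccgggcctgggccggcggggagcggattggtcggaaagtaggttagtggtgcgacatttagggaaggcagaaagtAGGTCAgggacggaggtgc
The Ciart window held 3 E-boxes, the Per3 window 2 D-boxes and the Bmal1 window printed 1 AGGTCA. The table has a second Bmal1 window, chr7:113207215-113207514, which held 0 of the 3 elements. None of the 3 elements was found in the Dbp window, which says only that these letters are not in this stretch. A match describes the letters and not a bound site.

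Sham-treated C57Bl/6J females collected at 640 d and males collected at 530 d, on the same pair of diets, were used to ask whether the diet difference depended on age or sex. WD ended at the same age in all of these groups, so collection age and time since WD ended cannot be told apart in females. Other libraries of these groups also had nearly the same counts: 4 of the 5 WD males (M12 to M15), 3 of the 5 WD females at 640 d (F32, F33 and F35) and 2 of the 5 ND females at 640 d (F29 and F30). Over 406 pairs of the 29 libraries, 11 pairs had a mean chi-square per gene of 1.72 to 3.27 and the next had 8.59. Both interactions are therefore also given with all of these summed, an alternative chosen after seeing the data. RIN also differed between the diets in females at 640 d (5.20 ± 0.731 in ND, 6.82 ± 0.563 in WD, SD, n = 5 each, exact permutation p = 0.00794, the smallest possible). In males at 530 d, mean RIN was 5.34 ± 1.06 in ND and 5.10 ± 0.725 in WD (SD, n = 5 each). Both were below the means of 7 and 7.22 in females at 530 d.

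On a scale set over the 39 sham libraries, mean Dbp was 124 and 71.4 CPM in ND and WD females at 530 d, 125 and 51.1 CPM in ND and WD females at 640 d, and 181 and 204 CPM in ND and WD males at 530 d. Both female ages had less Dbp on WD, and the male ranges overlapped. The log2 fold change was −0.78 in females at 530 d, −1.28 in females at 640 d (edgeR adjusted p = 8.44e-05) and 0.19 in males at 530 d (adjusted p = 0.848). At 640 d edgeR called 4873 of 10995 genes (44.3%), so a call was common there, and 0 in males (0%), with 774 at an unadjusted p under 0.05. With near-identical libraries summed, the last 2 fold changes were −1.20 (adjusted p = 0.0138, beside 1953 genes called, 17.8%) and 0.18 (adjusted p = 1.00).

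The diet by sex interaction at 530 d called 0 of 10995 genes in edgeR (0%), with 561 at an unadjusted p under 0.05, while DESeq2 called 11. The genes with the smallest p were Dbp, with a difference between the sexes' log2 fold changes of −0.97 (SE 0.179), Clock with 0.68, Hlf with −1.01, Per3 with −0.96, Foxj2, a forkhead factor, with 0.62 and Col5a3, a fibrillar collagen chain, with 1.30. All 6 had an edgeR adjusted p of 0.0899. With RIN as a covariate 5 genes were called, Dbp among them (adjusted p = 0.0105), and DESeq2 gave Dbp an adjusted p of 0.00128. With all near-identical libraries summed, edgeR again called 0 genes, 414 were at an unadjusted p under 0.05, and the Dbp difference was −0.96 with an adjusted p of 0.942. All 3 PAR bZIP genes, 5 of the 12 repressors and E-box targets and 2 of 5 in the list of Bmal1 and Clock had an unadjusted p under 0.05 in this interaction.

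The diet by collection age interaction in females called 1595 of 10995 genes in edgeR (14.5%), 601 with a higher and 994 with a lower diet difference at 530 d, while DESeq2 called 2259, split into 1099 and 1160. Among those with the smallest p, the diet difference was smaller at 530 d than at 640 d: Kdr, the VEGF receptor of endothelium, had log2 fold changes of −0.03 and 1.28, and Dll1, a Notch ligand, had −0.11 and 1.21. Col5a3 had 0.27 and 2.20. Of the clock genes, Wee1, a cell cycle kinase under clock control, had −0.03 and −1.41, Dbp −0.78 and −1.28 (interaction 0.49, adjusted p = 0.0354), and Clock 0.27 and 0.78 (interaction −0.52, adjusted p = 0.0217). With RIN as a covariate 34 genes were called, among them Kdr, Dll1, Col5a3 and Wee1 (adjusted p = 0.0262 each), and the calls of Dbp (0.63, adjusted p = 0.0814) and Clock (−0.52, adjusted p = 0.131) were lost. The count was 4 with all near-identical libraries summed, where Dll1, Col5a3 and Dennd3 were among those called (adjusted p = 0.0466 each) and Dbp, Clock, Wee1 and Kdr were not (adjusted p = 0.183, 0.187, 0.0827 and 0.0827). The interaction values of these 4 were then 0.43, −0.38, 1.23 and −1.20, against 0.49, −0.52, 1.37 and −1.32 with separate libraries. With only F6 and F7 summed 967 genes were called, and Dbp was not (adjusted p = 0.0583).

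**Figure D3:**
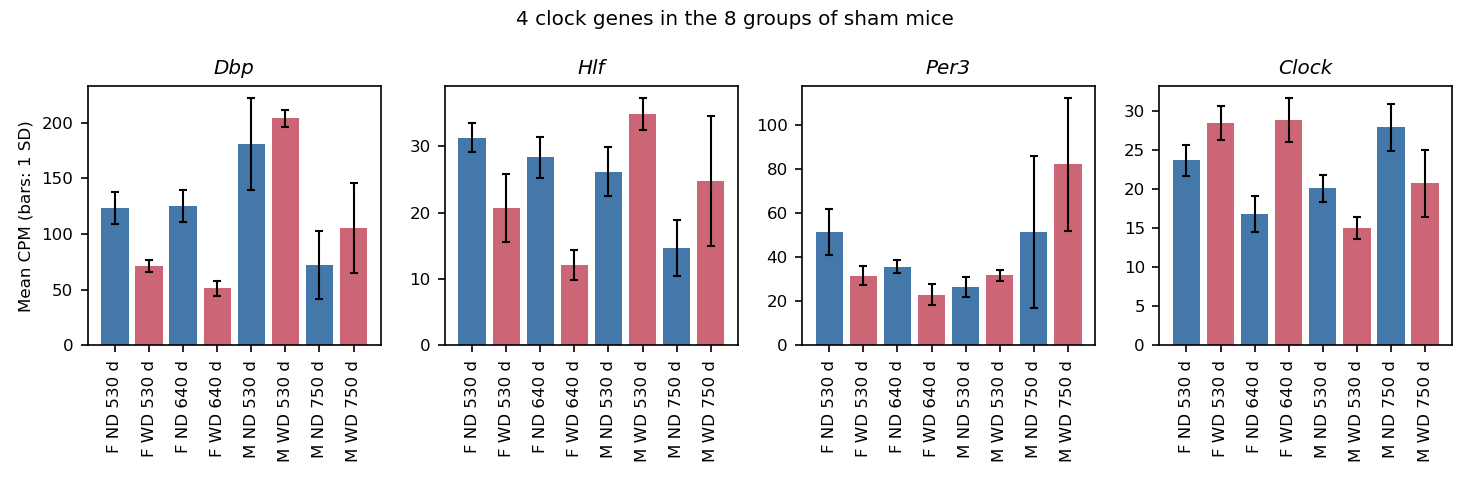
Mean CPM of Dbp, Hlf, Per3 and Clock in the 8 sham groups by sex, diet (ND blue, WD red) and collection age, scaled over the 39 sham libraries, with error bars of 1 SD. Mean Dbp is 124 CPM in ND and 71.4 CPM in WD females at 530 d, and 181 and 204 CPM in males at 530 d.

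Among all genes whose groups did not overlap, the 10 with the smallest p were taken in each direction, and 3 of the lower ones, Dbp, Per3 and Ciart, belong to the clock lists. The clock lists held 20 of the 10995 genes tested. They were chosen with earlier results of these data known, so this overlap is a description. None of the genes taken in either direction, other than Dbp, passed the edgeR test (adjusted p from 0.563 to 0.75). On the lower side, Serpini1, which encodes the serine protease inhibitor neuroserpin, had 8.03 to 9.99 CPM in ND and 5.29 to 6.67 CPM in WD (log2 fold change −0.59). Gstt2, a glutathione transferase, had 22.6 to 26.3 CPM in ND and 13.9 to 21 CPM in WD (−0.54). Tspan4, a tetraspanin, had 36.4 to 45.7 CPM in ND and 26 to 31.3 CPM in WD (−0.43). Hey1, a repressor downstream of Notch, had 19.4 to 21.9 CPM in ND and 14.7 to 17.2 CPM in WD (−0.35). Nrep, C920021L13Rik and Rmnd5b, with log2 fold changes of −0.46, −0.72 and −0.32, were the other lower genes. C920021L13Rik is a long noncoding RNA gene on the plus strand of chromosome 3, and its span holds Ciart on the minus strand. Whether its counts are separate from those of Ciart was not tested.

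On the higher side, Grk5, a kinase that desensitizes beta-adrenergic receptors, had 54.4 to 63.6 CPM in ND and 64.2 to 87.8 CPM in WD (log2 fold change 0.48). Atf6, a sensor of endoplasmic reticulum stress, had 70.7 to 76.7 CPM in ND and 85.7 to 97.2 CPM in WD (0.34). Ryr2, the calcium release channel of the sarcoplasmic reticulum, had 868, 844, 821 and 686 CPM in ND and 909, 1124, 1144, 1202 and 1074 CPM in WD (0.44). F11 was the WD library closest to ND for Grk5, Atf6 and Ryr2. Irs1, the insulin receptor substrate, had 18.5 to 22.1 CPM in ND and 24.4 to 31.7 CPM in WD (0.47), and Mmp14, a membrane-bound matrix protease, had 17.6 to 21.3 CPM in ND and 21.5 to 28.7 CPM in WD (0.43). Dusp18, a phosphatase, Mtus2, Slco3a1, an organic anion transporter, and the transcription factors Arid5b and Foxj2 had log2 fold changes of 0.62, 0.47, 0.39, 0.34 and 0.36. DESeq2 called 16 genes, 8 higher and 8 lower, among them Grk5, Atf6, Dusp18, Irs1, Mtus2, Ryr2, Serpini1, Gstt2, Nrep, Tspan4, C920021L13Rik, Ciart, Per3 and Dbp.

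The 3 genes outside the clock lists whose log2 CPM was most like that of Dbp over the 9 libraries were Mad2l1bp (r = 0.949), Hey1 (r = 0.941) and Tle6 (r = 0.928). The 9 values hold both diets and the pair F6 and F7, so the correlations are a description.

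Immediate early genes, which are transcribed within minutes of a stimulus, stood at 0.24 for the median gene, 16 of the 20 tested being higher, 5 of them at an unadjusted p under 0.05 (3.66% of all genes), and 2 lower at that limit (2.56% of all genes). Fos had 5.50, 6.10, 8.67 and 3.2 CPM in ND and 5.40, 15.1, 12.7, 15.6 and 17 CPM in WD, where F11 lay within the ND range and the other 4 libraries above it (log2 fold change 1.17, SE 0.325, edgeR adjusted p = 0.798). Nr4a1, Egr1, Zfp36 and Junb had 1.30, 0.72, 0.42 and 0.38, and Ier3 and Ier5 had −0.40 and −0.33, where Ier5 had −0.15 without F9. With F6 and F7 summed, the genes at an unadjusted p under 0.05 were 2 higher and 2 lower. Glucocorticoid-induced genes had a median of 0.12, 0.030 without F15 and 0.22 without F8. At an unadjusted p under 0.05, 2 of 11 were higher (3.66% of all genes), Klf15, a metabolic regulator (log2 fold change 0.42, 0.23 without F15), and Errfi1 (0.51), and 0 with F6 and F7 summed.

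Metabolic genes were tested as lists of insulin and glucose use, fatty acid uptake and oxidation, lipid storage, and cholesterol synthesis, in which edgeR called 0 genes. DESeq2 called Irs1 of the named members of these lists. Glucose use had a median of 0.11, and 0.065 without F8, with 18 of 23 genes higher and 4 of these at an unadjusted p under 0.05, beside 3.66% of all genes. The 4 were Irs1, Irs2, the insulin receptor Insr (0.22) and glycogen synthase Gys1 (0.20, and 0.13 without F8). With F6 and F7 summed there were 3, and Gys1 had an unadjusted p of 0.0536. Irs2 had 6.10 to 8.33 CPM in ND and 6.48, 8.48, 14.8, 33.3 and 14.2 CPM in WD, so F14 was far above the other WD libraries, and its log2 fold change of 1.13 became 0.64 without F14. Fatty acid uptake and oxidation had a median of −0.037 over 34 genes, of which Ppargc1a, a coactivator of mitochondrial genes, had an unadjusted p under 0.05 (0.38). Lipid storage and synthesis had 0.059 over 23 genes, with Lpin1, a phosphatidate phosphatase, at 0.32 and Elovl5, a fatty acid elongase, at −0.17. Cholesterol synthesis and uptake had −0.0048 over 17 genes, with 0 at an unadjusted p under 0.05. With 1 library left out, these 3 medians ranged from −0.10 to 0.024, from 0.0084 to 0.073 and from −0.018 to 0.029.

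Ribosomal protein and respiratory chain genes had medians below 0 that changed with RIN in the model and with single libraries. All 78 cytosolic ribosomal protein genes tested had a log2 fold change below 0, with a median of −0.16 and 0 genes past the edgeR test or an unadjusted p under 0.05. Their mean log2 level relative to ND was −0.14, −0.042, 0.51 and −0.33 in F6 to F9 and 0.32, −0.29, −0.38, −0.039 and −0.44 in F11 to F15. F8 and F11, the libraries with the lowest RIN of 5.9 and 6.4, were the highest of their groups, and F15, with the highest RIN, was the lowest. The median was −0.051 with RIN as a covariate, 0.042 without F8 and −0.30 without F11, so its direction rested on F8. Oxidative phosphorylation genes had a median of −0.16 with 68 of 75 lower, −0.089 with RIN as a covariate, −0.036 without F8, −0.25 without F9 and −0.30 without F11, and Cox5a, a subunit of cytochrome c oxidase, had −0.24.

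Genes of contraction and calcium handling had medians of −0.07 over 20 and 0.07 over 11 genes, which were −0.0044 and 0.11 without F9, while the contraction median was −0.12 without F11. Atp2a2 (SERCA2), the calcium pump of the sarcoplasmic reticulum, had 8883, 8869.6, 7441 and 8053 CPM in ND and 8586, 10294, 10778, 10451 and 10630.0 CPM in WD, where F11 alone overlapped ND (log2 fold change 0.29). Among sarcomere genes, Tcap, the titin cap, had −0.36 and Nebl (nebulette) had 0.21. In the wall stress list, F9 decided the direction of the median, but not that of Acta1 and Ankrd1. Acta1, the skeletal actin that reappears in loaded myocardium, had 593 CPM in F9 and 28.1 to 67.0 CPM in the other ND libraries. Its log2 fold change was −2.23, and −0.40 without F9, and that of Ankrd1 went from −0.95 to −0.16. The list's median was −0.20, and 0.19 without F9, −0.086 without F12, −0.36 without F15 and −0.40 without F8. Ccn2, a matricellular growth factor, had 136 CPM in F15 against 28.4 to 57.1 CPM in the other WD libraries, and 1.04 became 0.57 without F15.

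Collagen and extracellular matrix genes had a median of −0.052 over 34 genes, with 2 higher and 3 lower at an unadjusted p under 0.05, beside 3.66% and 2.56% of all genes. Mmp14 and Eln (elastin) were the higher pair, and Sparc, Nid1 and Col8a1 the lower ones, with log2 fold changes of 0.55 for Eln, −0.35 for Sparc, −0.22 for Nid1 and −0.46 for Col8a1. The median was 0.040 without F9, 0.0012 without F11, −0.096 without F7 and −0.094 with F6 and F7 summed. Without F9, Col8a1 went to −0.21 and Sparc to −0.18. Class I MHC and interferon-induced genes had a median of −0.20 with 27 of 28 lower, 2 of them at an unadjusted p under 0.05, where 50.7% of all genes were lower and 2.56% lower at that limit. B2m, the light chain of class I MHC, had 360, 367, 531 and 372 CPM in ND and 436, 296, 309, 278 and 267 CPM in WD, where F8 and F11, the libraries with the lowest RIN, were the highest of their groups (log2 fold change −0.36, and −0.21 without F8). H2-D1, a heavy chain, had −0.21. The list's median was −0.18 with RIN as a covariate and −0.25 to −0.15 over the libraries left out. Chaperones had a median of −0.0092 over 15 genes, and 0.029 without F9, and antioxidant genes −0.069 over 17, and 0.0014 without F8, with Hmox1, heme oxygenase, at −0.33. In none of these lists did a gene pass the edgeR test.

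**Figure D4:**
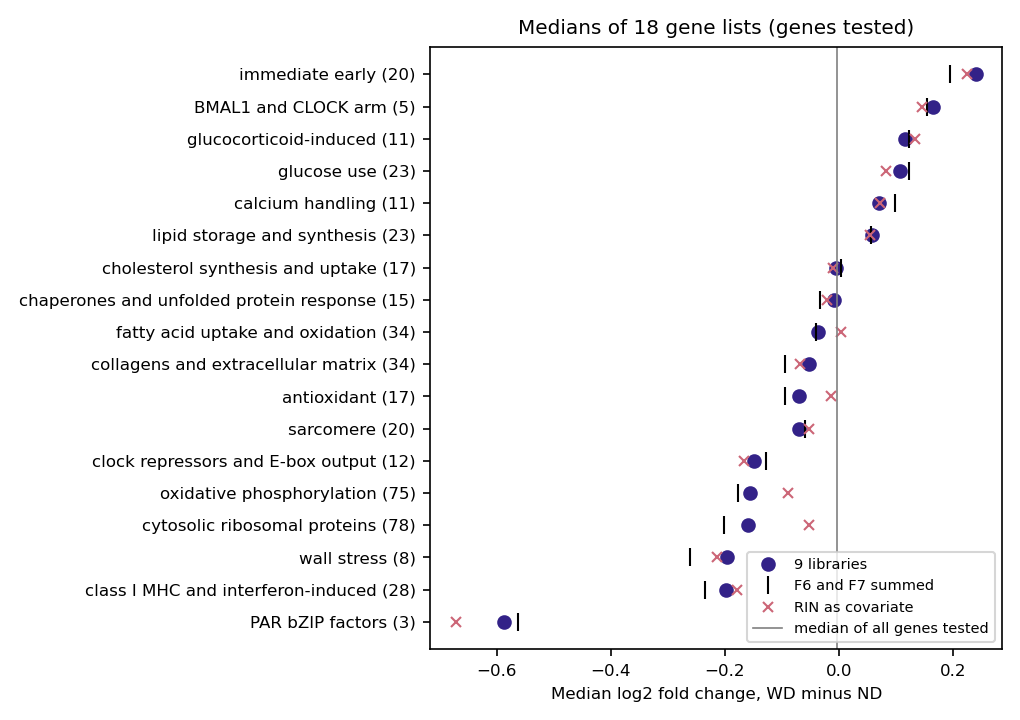
Median log2 fold change of WD over ND for 18 gene lists, with the number of genes tested in parentheses, for the 9 libraries (points), with F6 and F7 summed (ticks) and with RIN as a covariate (crosses), beside a grey line at the median of all 10995 genes. The PAR bZIP median of −0.59 is the lowest and the immediate early median of 0.24 the highest, and the ribosomal protein median is nearer 0 with RIN as a covariate (−0.051 against −0.16).

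Markers of other cell types were summed in each library. Atrial cardiomyocyte markers had 1154, 1198, 133 and 113 CPM in F6 to F9 and 158, 663, 154, 281 and 4888 CPM in F11 to F15. Myl4, the atrial light chain, was the most abundant of them in F6, F7, F12 and F15. In F8, F9, F11, F13 and F14 it was Kcnj3, with 47.4 to 88.7 CPM. The sum in F15 was far above all others. In F8, F9 and F13, the markers Sln, Myl7 and Bmp10 had 0 to 2 counts each. Other atrial markers were counted there, as Nppa had 3, 236 and 18 counts and Myl4 had 43, 55 and 59 counts. The median of the 3 atrial genes tested of 7 was 0.51, and −0.31 without F15. Macrophage markers, led by C1qa, were highest in F8 with 582 CPM and lowest in F15 with 280 CPM, and the median of 10 genes was −0.20, and 0.060 without F8. Red blood cell markers, led by Hbb-bs, were highest in F9 with 359 CPM, and their median of −0.40 over 4 genes became 0.012 without F9. Endothelial, fibroblast, and smooth muscle and pericyte markers had medians of −0.087, −0.013 and −0.072. Fibroblast markers had 0.15 without F8 and −0.10 without F9, endothelial markers −0.16 without F11, and smooth muscle and pericyte markers −0.12 without F12 and −0.039 without F15. None of the 8 adipocyte markers passed the filter, and their sum was between 0.508 CPM in F11 and 53.9 CPM in F12. The part of these cell types in the clock gene differences was not tested.

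Principal components of the 500 most variable genes gave no difference between the diets that passed the test. PC1 held 41.8% of the variance and PC2 25%, and the exact permutation p of the first 4 components was 0.341, 0.627, 0.222 and 0.230, with a lowest adjusted p of 0.455. The smallest possible exact p was 0.0159, so a component that fully parted the diets could not have passed alone after adjustment over 4 tests. F15 had the highest PC1 score, 18.3, and the next was F12 with 4.41. On PC2, F9 was lowest with −14.7 and F8 highest with 9.84.

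**Figure D5:**
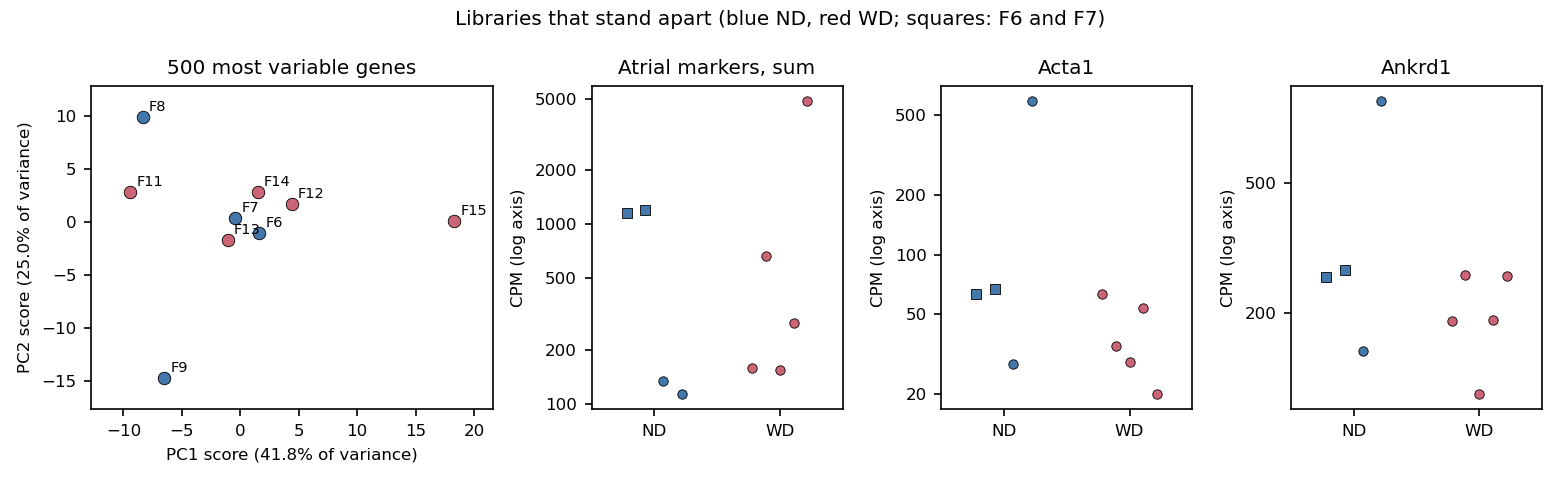
Scores of the 9 libraries on PC1 and PC2 (left), and CPM on log axes of the summed atrial markers, Acta1 and Ankrd1 in each ND (blue) and WD (red) library, with 1 point per library and, in the CPM panels, squares for F6 and F7. F15 stands apart on PC1 at 18.3 and in atrial markers at 4888 CPM, and F9 on PC2 at −14.7 and in Acta1 at 593 CPM.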

How the data were processed

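The authors deposited, for every gene, a count of reads that was not normalized. The submitters' processing notes name FastQC 0.11.9, STAR 2.7.8a and mm39 (GRCm39), and the authors counted reads with HTSeq-count over the 3′-most 500 bases of each gene. The annotation release and the strand setting are not given in the sources used here, so overlapping and antisense genes cannot be told apart. Of 56941 genes, 56323 had a symbol in GENCODE vM39. Reads were not realigned, and 1 of the 76 libraries could not be assigned to a group and was not used.

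Genes with more than 20 counts in each of the 39 sham libraries (10995) were tested in R 4.3.3 with edgeR 4.0.16 (TMM, quasi-likelihood test, Benjamini-Hochberg adjustment over all genes tested, threshold 0.05). Interactions were fitted on 19 sham libraries each. DESeq2 1.42.0 was an alternative, beside other filters, RIN as a covariate, other sources of spread and leaving out each library. Log2 CPM used a prior count of 2. The workflow was tested on simulated counts. Total counts limit precision for genes with few counts. Genes removed by this filter were compared only under the other filters, as Bmal1 and Npas2 were.

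Named genes were those past the threshold, the 10 with the smallest p in each direction among genes whose groups did not overlap, list members with an unadjusted p under 0.05 (or the 2 smallest), all tested clock genes, the 5 with the smallest p in each interaction, cell type markers, and the 3 most like Dbp. Some genes that met this rule are not reported here. Bmal1 and Npas2 were singled out after their values were seen. Members and lists were chosen with earlier results of these data known.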

Additional observations from a re-analysis of the deposited data

Results flagged for a closer look

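In 25 of 170 groups of 4 or 5 libraries, 1 library lay far from the others of its diet, by the gap to its nearest neighbour over the range of the group (Dixon 95% limits). Chance gives about 1 in 20 such groups when the libraries are independent, and genes of 1 library are not independent. That rate does not apply to the ND groups, where F6 and F7 had nearly the same counts, and their rate was not tested. The library far from the others was F8 in 9 groups, F9 in 8, F15 in 4, F11 in 2, and F6 and F14 in 1 each.

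F8 was high for Grk5 (63.6 CPM), Tspan4 (45.7), Errfi1 (22.1) and B2m (531), and low for Tcap (2185) and Gys1 (79.6). It was also high in the summed CPM of endothelial (2086), macrophage (582) and T and B cell markers (27.2). F9 was high for Acta1 (593 CPM), Ankrd1 (889), Ier3 (60.7), Ier5 (54.3), Mad2l1bp (16.4) and red blood cell markers (359), and low for Nebl (126) and Klf15 (40.2). F15 was high for Ccn2 (136 CPM), Per2 (37.3) and atrial markers (4888), and low for Nfil3 (7.09). F11 was high for B2m (436 CPM) and low for Atp2a2 (8586). F14 was low for Tle6 (7.12 CPM), and F6 had the highest total count of the ND libraries (15476026).

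The diet difference in females differed between 530 d and 640 d for 1595 genes by the interaction test. The difference of log2 fold changes was −1.33 for Dll1, −1.94 for Col5a3, −1.32 for Kdr, −1.11 for Dennd3, 0.49 for Dbp, 0.36 for Nr1d2, 1.37 for Wee1 and −0.52 for Clock. RIN differed between the diets at 640 d, and near-identical libraries were part of 3 of the 4 groups. With those summed, 4 genes were called. The Nr1d2 call (adjusted p = 0.0480) was lost with RIN as a covariate (0.166), with F6 and F7 summed (0.0790) and with all near-identical libraries summed (0.191), and the Dbp call in the same settings (0.0814, 0.0583 and 0.183).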

How the results depend on the processing

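The number of genes called between the diets was 1. It was 0 with F6 and F7 summed (542 at an unadjusted p under 0.05), 16 in DESeq2, 2 with the filter applied to the 9 libraries, 2 with edgeR's own filter, 4 with no filter, 3 with RIN as a covariate and 0 with the spread of the 39 sham libraries (252 at an unadjusted p under 0.05). With 1 library left out it was 0 to 1. The genes at an unadjusted p under 0.05 numbered 684, and 1533 without F11. Among alternatives chosen after seeing the data, the filter over the 9 libraries gave 0 calls with F6 and F7 summed (587 at an unadjusted p under 0.05) and 4 with RIN, and summing F6 and F7 with the spread of the 19 female libraries gave 1, Dbp (edgeR adjusted p = 0.0342), where near-identical libraries at 640 d were left separate. With these summed as well, which left 15 female libraries, it was 0 (482 at an unadjusted p under 0.05, Dbp adjusted p = 0.112). The Dbp adjusted p ranged from 3.19e-10 (DESeq2) to 1.00. The age interaction called 34 genes with RIN, 967 with F6 and F7 summed and 4 with all near-identical libraries summed. The sex interaction had 5 with RIN and 11 in DESeq2.

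Of 1633 fold changes of 71 named genes under 23 alternatives, 1582 kept direction and side of the threshold, 11 lost and 19 gained a call, and 21 changed sign, in 5 clock genes near 0. With 1 library left out, Nampt ranged from −0.043 to 0.15, Per1 from −0.10 to 0.38, Cry2 from −0.017 to 0.11, Wee1 from −0.12 to 0.10 and Cry1 from −0.066 to 0.15. With RIN, Per1 was −0.069, Cry2 −0.0099 and Cry1 −0.036, and with the filter over the 9 libraries and RIN −0.068, −0.0090 and −0.036. Cry1 was −0.022 with F6 and F7 summed, −0.033 with the spread of the 19 female libraries added, −0.031 with all near-identical female libraries summed and −0.023 with the filter over the 9. In the age interaction with RIN, Per1 was 0.26, Per3 0.19 and Bhlhe40 0.11. In the sex interaction with all near-identical libraries summed, Cry2 was 0.011 and Rora −0.00087. The causes were not tested. No paired analysis was possible because the labels give no replicate numbers that tie ND to WD libraries. Depth limits genes with few counts, such as Bmal1.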
